A study of Rattus norvegicus with 244 samples.

Results

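The genes described here encode the nuclear subunits of the mitochondrial respiratory chain and of ATP synthase. They were chosen by symbol, as every gene on the 3 array types with a feature annotated to 1 gene only whose symbol belongs to the Ndufa, Ndufb, Ndufc, Ndufs and Ndufv series, the Sdh series from Sdha to Sdhd, the Uqcr series, Cyc1, Cycs, Cox4 to Cox8 or the Atp5 series, with the brightest such probe set standing for each gene. This gave 82 of the 10969 genes with a symbol of their own, on 160 of the 26202 probe sets that are not controls. Complex I was represented by 35 genes, complex II by 4, complex III by 9, complex IV by 14 and complex V by 14, and the symbols also took in the ATP synthase inhibitor Atp5if1, 3 complex I assembly factors (Ndufaf3, Ndufaf4 and Ndufaf7) and 2 pseudogenes (Cox6c-ps1 and Ndufa13-ps1). A further 9 chain probe sets were annotated to several genes and were left out, among them that of cytochrome c (Cycs), which therefore has no value here.

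The respiratory chain passes electrons from NADH at complex I and from succinate at complex II to ubiquinone, on to cytochrome c through complex III, and from there to oxygen at complex IV. Complexes I, III and IV pump protons across the inner membrane, and complex V uses their return to make ATP. Most subunits are encoded in the nucleus and a smaller set in the mitochondrial genome, several complex IV subunits exist in tissue-specific forms, and neurons depend on this chain for most of the ATP that their ion pumps and synapses use.

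RNA of 84 samples of rat brain was read on 244 arrays of types A, B and C, which carry different probe sets. The regions were the raphe, whose serotonin neurons send fibres to the spinal cord, and the somatomotor cortex, which holds the corticospinal neurons. In each region there were 4 samples from naive rats, 12 from rats given a laminectomy without injury (called sham here, 2 at each of 6 times) and 24 from rats with an injury labelled moderate, in a series on spinal cord trauma and supraspinal tracts, (4 at each time). The times were 4 h, 24 h, 7 d, 14 d, 28 d and 3 months. Strain, sex, age, the level of the injury and the pooling of animals were not given in the sources used here, and nothing says that replicates came from separate animals. The p-values therefore measure the spread between samples within groups, pooled over all groups of a fit. All the injured raphe samples carry the source name raphe and all the sham and naive ones the source name raphe magnus (spelled Raphe Magno), while the titles carry the code RM in all of them. Whether the dissection differed is not known, so dissection and injury cannot be told apart there. A further 4 sham samples at 30 min or 72 h had no injured counterpart and entered no comparison.

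Values are written as log2 of the deposited signal plus 32, and a difference is a difference of these log2 values with its standard error. A gene is said to pass, or to be higher or lower, where limma's moderated test gave an adjusted p of at most 0.05 after Benjamini-Hochberg adjustment over all probe sets tested. In the fit of both regions 19453 probe sets were tested and all 82 members were among them. The members were bright, at a median of the 94.2 percentile of mean signal within their array type, and 73 of 82 lay above the 40th percentile of their array on every array, while 4 did so on fewer arrays than not (Cox6b2, Cox6c-ps1, Uqcrb and Ndufaf4). All 3 types were available for 79 samples.

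Some samples stood apart. Over 1747 probe sets of types B and C that differed between naive raphe and naive cortex, members left out, 35 sham and injured raphe samples lay nearer to the naive raphe mean at 63 to 86.7% of probe sets and 36 such cortex samples at 10.3 to 26.6%. The naive samples, which chose these probe sets, are not in these ranges. Replicate 1 of raphe sham at 3 months, by its title, was nearer to raphe at only 15.7%, and replicate 1 of cortex sham at that time at 67.7%, so each was on the side of the other region. In raphe injured at 4 h, replicate 1, the actin 3' over 5' signal ratio was 46.2, where the median of injured raphe was 1.52, and the 5th percentile of signal was 57.0 in cortex sham at 14 d, replicate 2, and 31.3 in cortex injured at 7 d, replicate 2, against medians of 15.8 and 14.1 in cortex sham and injured samples. All 5 are referred to as doubted, and the former 2 as region-doubted.

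Promoters of these genes were described as well, and words were not compared between members higher in raphe and the others. Of the 82 members, 70 matched by gene ID a RefSeq promoter of build GRCr8, a stretch of 300 bases from 250 before to 50 after the start of the gene. Exact words of 5 transcription factor motifs were searched on both strands, CGCATGCG for NRF1, CCGGAAGT for ETS factors such as GABP, AAGATGGC for YY1, AAGGTCA for an ERR site and GGGCGGGG for SP1. No word contains another, and a promoter can hold several. The YY1 word stood in 16 of 70 member promoters (22.9%) and in 3.17% of all 33469 promoters in the table. It read in the direction of the gene and began between 5 bases before and 40 after the start in 13 of 70 members (18.6%), against 1.25% of all promoters. NRF1 words were found in 7 members (10%, against 1.66% of all), ETS words in 7 (10% against 3.81%), ERR words in 9 (12.9% against 4.61%) and SP1 words in 7 (10% against 15.2%). Any of the words stood in 32 of 70 members (45.7%, against 25.6% of all promoters), and 38 members held none.

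The windows printed here run from 100 bases before to 30 after the start, read 5′ to 3′ along the gene. They are shown for 7 genes that were higher in raphe, described further on and chosen because their windows hold a word. Cox6a2, a member that was lower in raphe, is shown too, and capitals mark the words found. Uqcr11, also lower in raphe, matched no promoter. With genes chosen in this way, the windows cannot link a word to a direction. A word is a description of these letters and not a shown binding site.
Uqcrc1 (chr8:118468123-118468252, plus strand): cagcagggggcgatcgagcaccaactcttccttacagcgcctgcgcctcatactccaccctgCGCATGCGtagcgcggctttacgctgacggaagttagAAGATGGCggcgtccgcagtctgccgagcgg
Ndufb8 (chr1:253362907-253363036, minus strand): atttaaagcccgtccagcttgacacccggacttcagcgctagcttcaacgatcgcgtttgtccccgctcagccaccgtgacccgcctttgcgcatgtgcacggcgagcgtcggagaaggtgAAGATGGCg
Ndufs7 (chr7:10110469-10110598, minus strand): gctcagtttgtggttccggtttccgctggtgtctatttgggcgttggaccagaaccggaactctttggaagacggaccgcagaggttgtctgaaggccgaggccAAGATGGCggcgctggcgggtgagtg
Sdhc (chr13:86097996-86098125, minus strand): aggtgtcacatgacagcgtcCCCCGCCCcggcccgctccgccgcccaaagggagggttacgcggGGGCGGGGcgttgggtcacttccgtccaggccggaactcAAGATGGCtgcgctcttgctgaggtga
Uqcrh (chr5:134790853-134790982, minus strand): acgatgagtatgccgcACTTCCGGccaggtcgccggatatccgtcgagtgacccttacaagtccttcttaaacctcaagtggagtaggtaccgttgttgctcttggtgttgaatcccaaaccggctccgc
Cox5b (chr9:46417737-46417866, plus strand): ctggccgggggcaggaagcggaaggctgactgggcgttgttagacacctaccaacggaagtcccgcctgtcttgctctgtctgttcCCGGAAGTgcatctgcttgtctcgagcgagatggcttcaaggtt
Atp5mc3 (chr3:79220635-79220764, minus strand): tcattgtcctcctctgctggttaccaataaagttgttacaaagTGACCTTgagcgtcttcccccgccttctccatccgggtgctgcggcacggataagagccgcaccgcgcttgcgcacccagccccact
Cox6a2 (chr1:192219687-192219816, minus strand): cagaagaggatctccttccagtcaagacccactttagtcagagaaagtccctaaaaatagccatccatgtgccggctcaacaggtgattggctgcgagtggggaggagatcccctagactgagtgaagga

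In Uqcrc1 the NRF1 word began 38 bases before the start and the YY1 word at the base just before it. Sdhc also held 2 SP1 words. In Sdhc, Ndufs7 and Ndufb8 the YY1 word began at bases 4, 5 and 22 of the transcribed strand. Uqcrh and Cox5b held an ETS word, which began 84 and 14 bases before the start, and Atp5mc3 an ERR word, 57 before it. None of the 5 words was found in the Cox6a2 window.

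Raphe was first compared with cortex. More respiratory chain genes were higher than lower in raphe in naive, sham and injured rats alike. In naive rats 10 of 82 members were higher and 2 lower, against 6.65% of all probe sets higher and 7.59% lower. Over the 6 sham times 36 were higher and 2 lower, where 15.7% and 16.9% of all probe sets were. Over the 6 injured times 51 were higher and 2 lower, where 24.3% and 24% were. The 3 arms share no samples, but their tests come from the same fit and share its spread, estimated over all groups of both regions. The median difference over the members was 0.29 in naive, 0.38 in sham and 0.32 in injured rats, or 1.22, 1.3 and 1.25 times, while that of all probe sets was -0.004, -0.02 and -0.01.

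Among the members 72, 76 and 77 of 82 were higher in raphe in the naive, sham and injured arms by the sign alone (87.8, 92.7 and 93.9%), beside 49.6, 47.7 and 48.6% of all probe sets. In all 3 arms 70 of 82 were higher (85.4%), and 30.9% of all probe sets were. Because the members are bright, the 1947 probe sets at or above the 90th percentile of mean signal, of any gene, were also counted, and 55.9, 59.8 and 52.5% of them were higher in raphe, with medians of 0.06, 0.09 and 0.03. Of those bright probe sets 13, 28 and 33.1% passed as higher and 11, 18 and 28.8% as lower. No test was made of the members as a list.

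**Figure D1:**
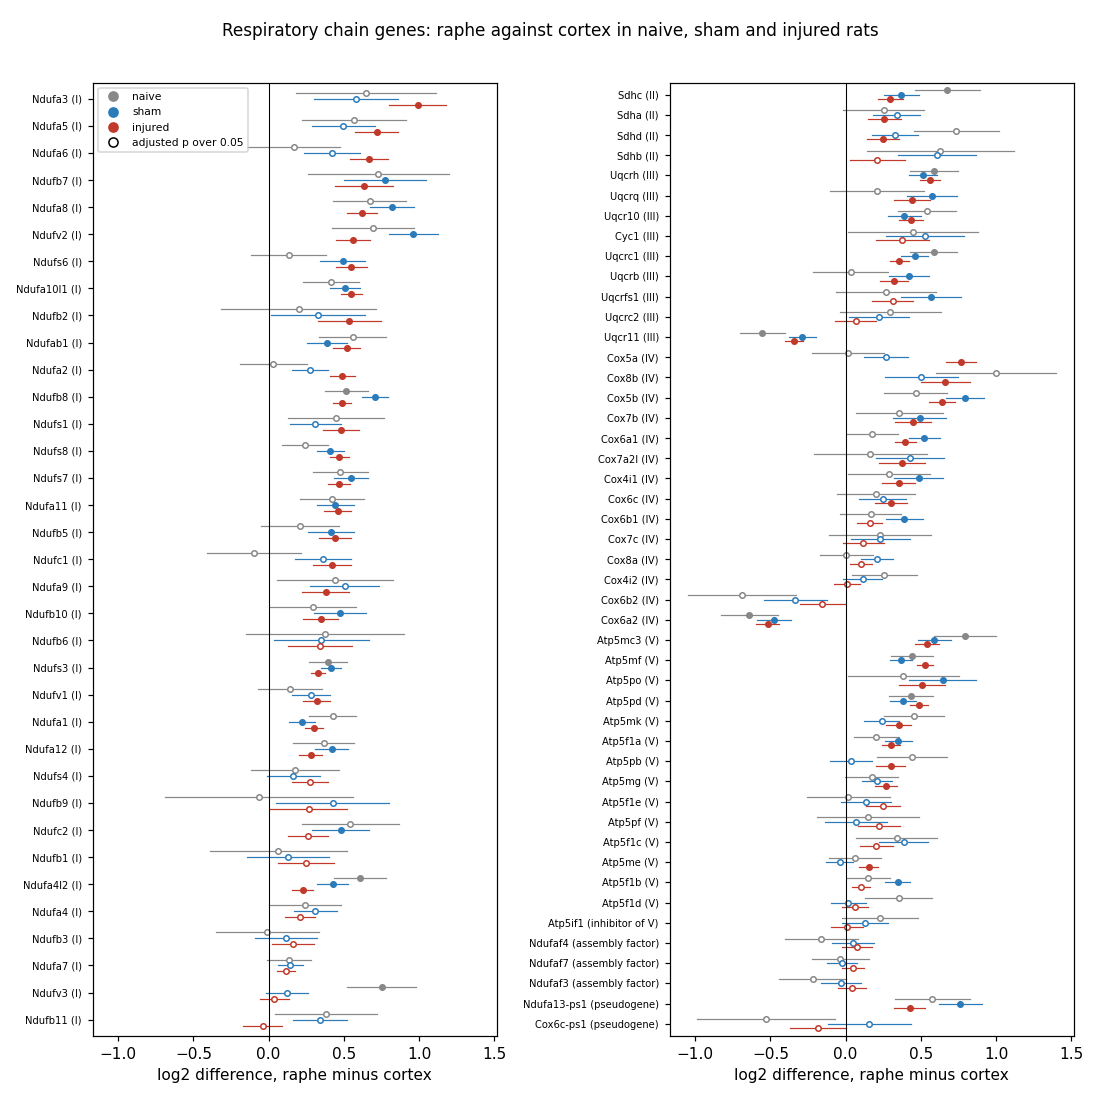
Log2 difference between raphe and cortex (raphe minus cortex, horizontal axis) of the 82 members by complex, with standard error bars, in naive, sham and injured rats. Filled points have an adjusted p of at most 0.05, and nearly all points lie right of 0, with Uqcr11, Cox6a2 and Cox6b2 left of it in all 3 arms.

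Sample by sample, the shift of a sample was taken as the median over its members of the log2 level minus that gene's mean in naive cortex. In injured rats the 24 raphe samples ran from 0.17 over a median of 0.31 to 0.47, and the 24 cortex samples from -0.20 over -0.02 to 0.13. The groups did not overlap. In naive rats raphe ran from 0.27 to 0.41 and cortex from -0.06 to 0.07. The sham groups did overlap, with raphe from -0.03 to 0.56 and cortex from -0.35 to 0.19. Over the 6 times the lowest raphe and the highest cortex sham value were those of the region-doubted samples (-0.03 and 0.19). Without these 2 samples the lowest of the 39 raphe samples compared was 0.17 and the highest of the 39 cortex samples compared 0.13. Of the sham samples outside the comparisons, those at 30 min, measured on type A alone with 48 members, were at 0.13 and 0.32 in cortex and 0.37 in raphe, so that 1 cortex sample lay within the raphe range, and the cortex sample at 72 h was at 0.05. The count of members that passed in the sham comparison was then 38 higher and 2 lower, and the median difference 0.41.

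**Figure D2:**
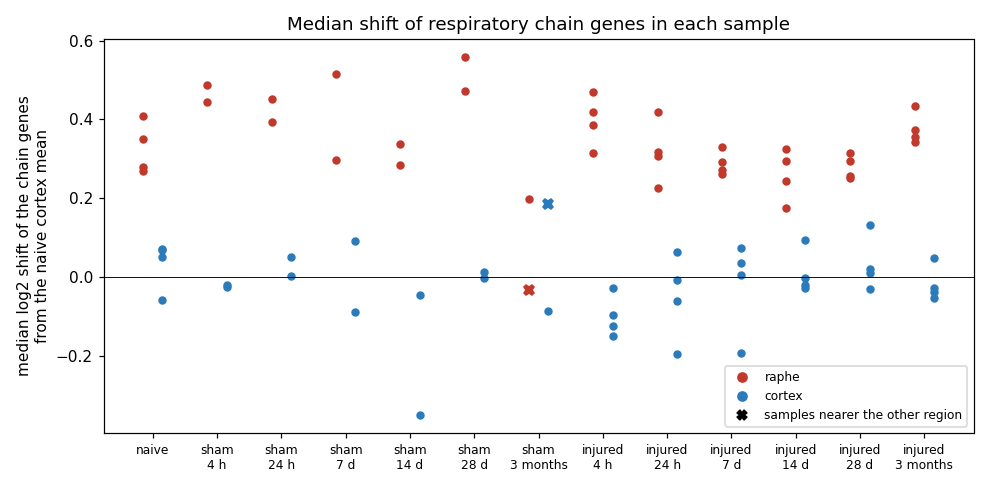
Median log2 shift of the respiratory chain genes from their naive cortex mean (vertical axis), 1 point a sample, by arm and time. Crosses mark the 2 samples that lay nearer the other region, and apart from them every raphe sample plotted lies at 0.17 or above and every cortex sample plotted at 0.13 or below. Sham samples at 30 min and 72 h are not plotted.

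The regional difference was present at each time in injured rats, and in sham rats at each time up to 28 d. In injured rats the median over members of the raphe mean minus the cortex mean was 0.44 at 4 h, 0.39 at 24 h, 0.37 at 7 d, 0.19 at 14 d, 0.24 at 28 d and 0.41 at 3 months, and between 63 and 74 of 82 members were higher in raphe. In sham rats it lay between 0.36 and 0.50 up to 28 d. At 3 months the sham value was 0.04, with 51 of 82 members higher in raphe. Its group means include the region-doubted samples, each on the side of the other region. The other sham samples at that time had median shifts of 0.20 in raphe and -0.09 in cortex. These values are group means and were not tested against each other.

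Complex I, which takes electrons from NADH, had 4 of 35 genes higher in naive, 17 in sham and 25 in injured raphe, and 0 were lower in any arm by limma, or at an unadjusted p under 0.05. Among all probe sets 6.65, 15.7 and 24.3% were higher and 7.59, 16.9 and 24% lower. Groups without overlap, named here and below, made up 23.2, 1.14 and 3.49% of all probe sets in naive, sham and injured rats. This assignment follows the symbols, and NDUFA4 is by now known as a complex IV subunit. Without Ndufa4 and Ndufa4l2, a count added after seeing the data, the counts of higher genes were 3, 16 and 24 of 33. Ndufb8, an accessory subunit of its membrane arm, passed in all 3 arms. Its level was 13.59, 13.62, 13.90 and 13.58 in the naive raphe samples and 13.12, 13.38, 13.20 and 12.92 in the naive cortex ones, so that every raphe value was above every cortex value. Over the injured samples it ran from 13.05 over a median of 13.54 to 14.09 in raphe and from 12.70 over 13.10 to 13.49 in cortex, and the groups overlapped. The difference of Ndufb8 was 0.52 ± 0.14 in naive, 0.71 ± 0.09 in sham and 0.49 ± 0.06 in injured rats (adjusted p = 0.00823, 9.98e-10 and 2.23e-10), and 23 of 24 injured raphe samples lay above the mean of injured cortex. The naive call was lost without raphe naive replicate 3 or cortex naive replicate 4, with an adjusted p of up to 0.0506.

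Other catalytic and accessory subunits of complex I differed likewise. Ndufs3, a core subunit of the peripheral arm, differed by 0.40 ± 0.12 in naive, 0.41 ± 0.07 in sham and 0.33 ± 0.05 in injured rats (adjusted p = 0.0219, 9.98e-07 and 2.87e-08). Its naive call was lost without raphe naive replicate 3 or 4 or cortex naive replicate 4. Ndufs7, a core subunit that carries an iron-sulfur cluster, was 12.03 to 12.82 (median 12.48) in 11 sham raphe samples and 11.55 to 12.02 (median 11.87) in 12 sham cortex samples, which did not overlap. The difference in sham rats was 0.55 ± 0.11 (adjusted p = 5.45e-05). Ndufs8, another such core subunit, was higher by 0.47 ± 0.06 in injured raphe, in 24 of 24 samples (adjusted p = 3.56e-09).

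The core subunit Ndufv2 was higher by 0.96 ± 0.16 in sham raphe, the largest called difference of a complex I member in that arm, and Ndufa8 by 0.82 ± 0.15. Ndufa10l1, named as a Ndufa10-like gene, was higher by 0.51 ± 0.10 in sham and 0.55 ± 0.07 in injured raphe. Ndufv3 passed in naive rats alone, with a difference of 0.75 ± 0.23 (adjusted p = 0.018), and gave 0.12 ± 0.14 in sham and 0.04 ± 0.09 in injured rats. The change between arms was not tested, and the naive call was lost without raphe naive replicate 3 or cortex naive replicate 3. Ndufa4l2, a paralog of Ndufa4 that is induced by low oxygen, was higher by 0.61 ± 0.17 in naive, 0.42 ± 0.10 in sham and 0.23 ± 0.07 in injured raphe, whereas Ndufa4 itself gave 0.24 ± 0.24, 0.31 ± 0.14 and 0.21 ± 0.10 and did not pass. The 3 assembly factors did not pass in any arm, and their differences lay between -0.22 and 0.07.

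Complex II, succinate dehydrogenase, which also belongs to the citric acid cycle, had all 4 genes above 0 in each arm. Sdhc, a membrane anchor, was 13.17, 13.40 and 13.20 in the 3 naive raphe samples on its array type and 12.53, 12.56, 12.34 and 12.87 in naive cortex. All of these raphe values were above all of the cortex ones, and the difference was 0.68 ± 0.22 (adjusted p = 0.0249), a call that was lost without any of 4 samples (cortex naive replicates 1 and 3, raphe naive replicates 3 and 4). Sdhc was also higher in sham (0.37 ± 0.12) and injured raphe (0.30 ± 0.08). The flavoprotein gene Sdha and the anchor Sdhd passed in injured rats alone, by 0.26 ± 0.11 and 0.25 ± 0.11 (adjusted p = 0.0478 and 0.0498), and both calls were lost without the region-doubted samples. The iron-sulfur subunit Sdhb did not pass, with 0.63 ± 0.49, 0.61 ± 0.26 and 0.21 ± 0.18.

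Complex III, which passes electrons from ubiquinol to cytochrome c, had 2 of 9 genes higher in naive, 6 in sham and 5 in injured raphe, and 1 lower in each arm. Among all probe sets 6.65, 15.7 and 24.3% were higher and 7.59, 16.9 and 24% lower. Uqcrh, the hinge protein near cytochrome c1, was 14.41, 14.57, 14.68 and 14.53 in naive raphe and 14.07, 14.01, 13.93 and 13.83 in naive cortex, without overlap. In injured rats it ran from 14.02 over 14.33 to 15.29 in raphe and from 13.25 over 13.90 to 14.19 in cortex. The differences of Uqcrh were 0.59 ± 0.16, 0.52 ± 0.09 and 0.56 ± 0.07 (adjusted p = 0.00713, 9.02e-06 and 1.04e-10), with 24 of 24 injured raphe samples above the cortex mean. Its highest injured value came from the doubted raphe sample at 4 h.

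The core protein Uqcrc1 was higher by 0.59 ± 0.16 in naive, 0.46 ± 0.09 in sham and 0.36 ± 0.06 in injured raphe (adjusted p = 0.0057, 4.56e-05 and 3.89e-06). The other core protein, Uqcrc2, did not pass, with 0.30 ± 0.34, 0.22 ± 0.20 and 0.07 ± 0.14. Cyc1, cytochrome c1, which hands the electron to cytochrome c, gave 0.45 ± 0.43, 0.53 ± 0.26 and 0.38 ± 0.18 and did not pass either. Uqcr11, the smallest subunit, was lower in raphe throughout. Its level was 13.69, 13.62, 13.22 and 13.84 in naive raphe and 14.16, 14.21, 14.33 and 13.90 in naive cortex, so that all raphe values lay below all cortex ones. The difference of Uqcr11 was -0.55 ± 0.15 in naive, -0.29 ± 0.09 in sham and -0.34 ± 0.06 in injured rats (adjusted p = 0.00513, 0.0081 and 2.19e-06), the naive call being lost without raphe naive replicate 3.

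Complex IV, cytochrome c oxidase, had 0 of 14 genes higher and 1 lower in naive rats by limma (2 higher and 1 lower at an unadjusted p under 0.05), 5 higher and 1 lower in sham and 8 higher and 1 lower in injured rats. Among all probe sets 6.65, 15.7 and 24.3% were higher and 7.59, 16.9 and 24% lower by limma. Cox5b, a nuclear subunit of the matrix side, was 13.34 to 13.84 (median 13.73) in 11 sham raphe samples and 12.02 to 13.17 (median 12.90) in 12 sham cortex samples, and the groups did not overlap. The difference of Cox5b was 0.79 ± 0.13 in sham and 0.64 ± 0.09 in injured rats (adjusted p = 5.81e-07 and 3.31e-09). Cox5a, its partner subunit, was higher by 0.77 ± 0.10 in injured raphe (adjusted p = 1.07e-09) and gave 0.27 ± 0.14 in sham rats. Another Cox5a probe set was annotated to several genes and was left out.

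Several complex IV subunits have tissue forms. Of the pair Cox6a1, the form of most tissues, and Cox6a2, the heart and skeletal muscle form, Cox6a1 was higher in sham (0.52 ± 0.10) and injured raphe (0.40 ± 0.07), and Cox6a2 was lower in all 3 arms. Cox6a2 was 9.49, 9.13, 10.06 and 9.32 in naive raphe and 9.95, 10.14, 10.28 and 10.18 in naive cortex, where raphe replicate 3 lay among the cortex values. In injured rats it ran from 9.02 over 9.51 to 9.95 in raphe and from 9.04 over 10.02 to 10.52 in cortex. The differences of Cox6a2 were -0.64 ± 0.19, -0.48 ± 0.11 and -0.52 ± 0.08 (adjusted p = 0.0126, 0.000609 and 5.13e-08), and the naive call was lost without raphe naive replicate 2.

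Of 9 tested skeletal muscle and heart markers, 2 were lower in naive, 2 in sham and 4 in injured raphe and 0 were higher. Among all probe sets 7.59, 16.9 and 24% were lower. The summed signal of the 12 markers measured ran from 3000 to 4975 in injured raphe and from 4577 to 7146 in injured cortex, and their part in the Cox6a2 difference was not tested. Cox6b1 was higher in sham raphe (0.39 ± 0.12), while its testis form Cox6b2, at a low signal, gave -0.69 ± 0.36, -0.33 ± 0.21 and -0.15 ± 0.15 and did not pass. The general form Cox4i1 was higher in sham (0.49 ± 0.16) and injured raphe (0.35 ± 0.11), and the lung form Cox4i2 was not (0.11 ± 0.13 and 0.01 ± 0.09). Cox7b was higher in sham (0.49 ± 0.17) and injured raphe (0.45 ± 0.12), Cox6c by 0.30 ± 0.11 and Cox7a2l by 0.38 ± 0.15 in injured raphe alone, and Cox7c (0.12 ± 0.14) and Cox8a (0.10 ± 0.07) did not pass there. The muscle form Cox8b was higher by 0.66 ± 0.16 in injured raphe (adjusted p = 0.000522), against the direction of Cox6a2.

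Complex V, ATP synthase, had 3 of 14 genes higher in naive, 6 in sham and 9 in injured raphe and 0 lower by limma, or at an unadjusted p under 0.05. Among all probe sets 6.65, 15.7 and 24.3% were higher and 7.59, 16.9 and 24% lower by limma. Atp5mf and Atp5pd, subunits of the membrane part and of the peripheral stalk, were the members whose 24 injured raphe samples lay wholly above the 24 injured cortex samples. That is 2 of 82 members, where 3.49% of all probe sets did not overlap. Atp5mf ran from 13.11 over 13.25 to 14.28 in injured raphe and from 12.52 over 12.81 to 13.09 in injured cortex. Its naive values were 13.18, 13.46 and 13.32 in raphe and 12.89, 12.84, 13.01 and 12.78 in cortex. The difference of Atp5mf was 0.44 ± 0.14, 0.37 ± 0.07 and 0.53 ± 0.05 (adjusted p = 0.0198, 4.82e-05 and 3.36e-13), the naive call being lost without raphe naive replicate 3 or 4 or cortex naive replicate 4.

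Atp5pd ran from 13.69 over 13.86 to 14.81 in injured raphe and from 13.00 over 13.43 to 13.68 in injured cortex. Its difference was 0.43 ± 0.14, 0.38 ± 0.08 and 0.49 ± 0.06 (adjusted p = 0.0323, 0.000207 and 2.55e-10), but 6 of the 8 naive samples, left out in turn, ended the naive call. Atp5mc3, one of the genes for the rotating c ring, was higher by 0.79 ± 0.21, 0.59 ± 0.11 and 0.54 ± 0.08 (adjusted p = 0.00455, 1.97e-05 and 4.08e-08). The highest injured raphe value of both Atp5mf and Atp5pd was that of the doubted sample at 4 h. Atp5f1a was higher by 0.35 ± 0.09 in sham and 0.30 ± 0.06 in injured raphe and Atp5f1b by 0.35 ± 0.09 in sham raphe alone (0.10 ± 0.06 in injured). Atp5if1, which blocks the reverse reaction of the enzyme, did not differ detectably (0.23 ± 0.25, 0.13 ± 0.15 and 0.01 ± 0.10).

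**Figure D3:**
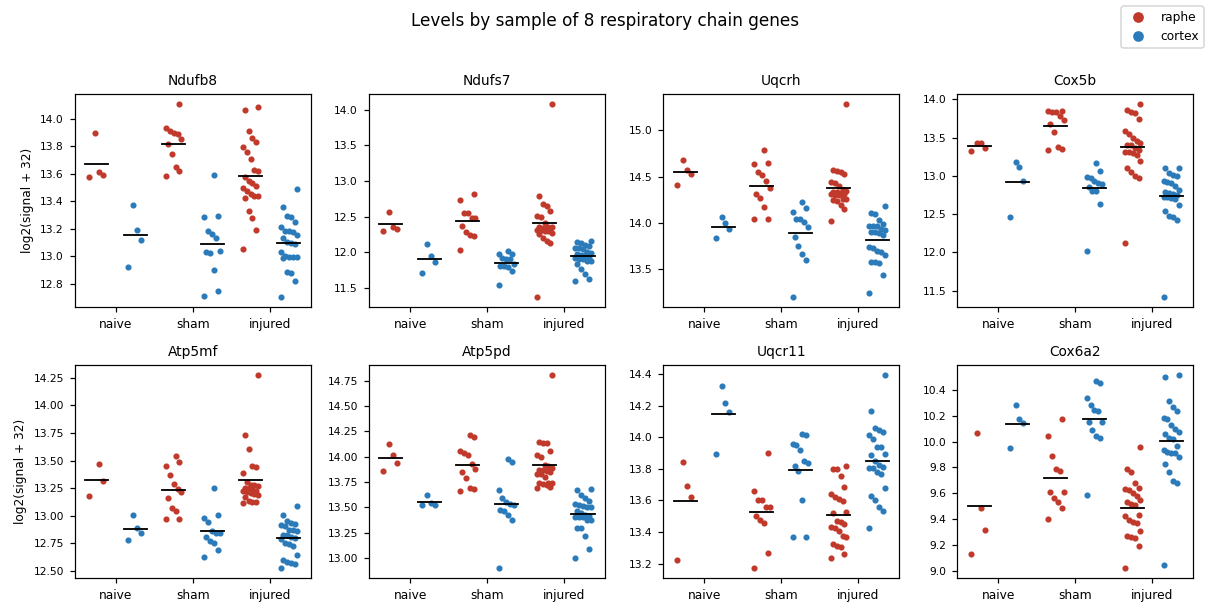
Level (log2 of signal plus 32, vertical axis, not starting at 0) of 8 members in each sample, raphe and cortex side by side in naive, sham and injured rats, with group means as lines. Atp5mf and Atp5pd do not overlap between regions in injured rats, Ndufs7 and Cox5b do not in sham rats, and Uqcr11 and Cox6a2 are lower in raphe. Of all probe sets, 3.49% did not overlap in injured and 1.14% in sham rats.

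Groups that did not overlap were counted over the whole chain. In naive rats 25 of 82 members did not overlap between the regions, where 23.2% of all probe sets did not. In sham rats there were 2 (Ndufs7 and Cox5b), where 1.14% of all probe sets did not overlap, and in injured rats 2 (Atp5mf and Atp5pd), where 3.49% did not. The pseudogene probe sets differed from each other, since Ndufa13-ps1 was higher by 0.76 ± 0.14 in sham and 0.43 ± 0.10 in injured raphe and Cox6c-ps1 passed in no arm. RNA of a parent gene can bind such probe sets, so these values are uncertain.

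Other probe sets of the same genes gave a check within the arrays. Of 70 further probe sets of members, 50 in naive, 59 in sham and 59 in injured rats had the sign of the probe set used. Of 15 further probe sets of genes that passed in naive rats 12 had the same sign and 0 passed by limma, and of 34 in sham rats 32 had it and 14 passed. Of 42 in injured rats 38 had it, 22 passed with the same sign and 2 passed with the opposite sign, those of Ndufs1 and Ndufc1, whose direction is therefore uncertain (0.48 ± 0.12 and 0.42 ± 0.13 by the probe sets used).

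Neighbouring pathways were counted in the same way. Of all probe sets, 6.65, 15.7 and 24.3% were higher and 7.59, 16.9 and 24% lower in naive, sham and injured raphe. Of 16 tested genes of the citric acid cycle and pyruvate dehydrogenase, 0 passed in naive rats by limma (1 at an unadjusted p under 0.05), 5 were higher in sham and 5 in injured raphe, and 0 were lower in any arm, also at an unadjusted p under 0.05. Of 13 glycolysis and lactate genes 2, 5 and 5 were higher and 0, 0 and 3 lower. Of 18 assembly factors outside the symbol rule 1, 6 and 7 were higher and 0, 1 and 2 lower, and of 12 regulators of mitochondrial genes 0, 3 and 4 were higher and 0, 0 and 1 lower (3 at an unadjusted p under 0.05 in naive rats). Of 16 mitochondrial carriers, channels and creatine kinases 1, 5 and 6 were higher and 0, 0 and 3 lower. Probe sets for the mitochondrially encoded complex IV subunits COX1, COX2 and COX3 did not pass in any arm, and in injured rats their 95% intervals ran from -0.24 to 0.10, from -0.44 to 0.53 and from -0.07 to 0.49.

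Cell type markers differed between the regions beside the chain genes. The shares of all probe sets to set beside these counts were 6.65, 15.7 and 24.3% higher and 7.59, 16.9 and 24% lower. Oligodendrocyte markers were higher in raphe, 4 of 6 in naive and 6 of 6 in sham and injured rats, and their summed signal ran from 74390 to 181000 in injured raphe and from 58140 to 105200 in injured cortex. All 3 tested markers of cortical excitatory neurons were lower in raphe in every arm, with sums over the 4 measured of 1408 to 4265 in injured raphe and 30550 to 55610 in injured cortex. Brainstem neuron markers were higher for 5 of 6 in every arm, with sums of 10880 to 19150 and 938.2 to 1891, and 3 of 4 serotonin neuron markers were higher in every arm, with 1 lower in sham and injured raphe. Blood markers were higher in naive raphe (4 of 5, with 1 lower), with sums of 114900 to 132800 in raphe and 48140 to 86430 in cortex, and 0 of 5 passed in sham and injured rats by limma (0 at an unadjusted p under 0.05). Astrocyte markers differed both ways, with 1, 3 and 3 of 6 higher and 1, 1 and 2 lower in the naive, sham and injured arms, and sums of 25130 to 73390 in injured raphe and 33210 to 50540 in injured cortex. Choroid plexus markers were higher for 0, 1 and 2 of 4 and lower for 0, with sums of 641.2 to 56290 in injured raphe and 679.4 to 2673 in injured cortex, by limma in each arm (1 of 4 at an unadjusted p under 0.05 in naive rats, lower). Of 6 endothelial markers 3 were higher in injured raphe, with sums of 5495 to 31710 there and 4635 to 7985 in injured cortex. Sums of 9 microglia and macrophage markers ran from 6989 to 15300 in injured raphe and from 6664 to 11100 in injured cortex. Those of 5 parvalbumin and fast-spiking neuron markers ran from 7936 to 13420 and from 6269 to 9814. Among 8 general neuron markers 3 were higher in every arm, with 3 lower in naive and 4 lower in sham and injured raphe. The part of cell composition in the chain genes was not tested, and in such bulk tissue more cells of a type and more RNA per cell cannot be told apart.

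Injured samples were then compared with sham samples, which asked which genes differed after spinal cord injury beyond laminectomy. In raphe the source names also differ between these groups, so dissection and injury cannot be told apart there. In raphe, over the 6 times, 0 of 81 members passed by limma, where 0.946% of all probe sets did, and 14 were under an unadjusted p of 0.05, against 15.1% of all probe sets. The smallest adjusted p was 0.11, for Cox6c (0.38 ± 0.12), followed by Cox6a1 (-0.30 ± 0.10), Ndufa4l2 (-0.20 ± 0.07), Cox4i2 (-0.32 ± 0.11) and Ndufv2 (-0.43 ± 0.15), at adjusted p of 0.129 to 0.159. The median difference was -0.01, and 37 of 81 were above 0. The 95% interval of the difference lay within 0.5 of 0 for 56 of 81 members.

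Left-out samples mattered for that count. Without raphe injured at 4 h, replicate 1, 5 members passed, where 6.24% of all probe sets did. Without raphe sham at 3 months, replicate 2, 6 did, where 3.09% did, but type A then had no sham array at 3 months and its genes were compared over 5 times. Without the 5 doubted samples 4 passed, where 4.73% of all probe sets did, with Cox6c (0.43 ± 0.09) and Atp5pf (0.46 ± 0.10) higher and Cox6a1 (-0.33 ± 0.09) and Cox4i2 (-0.34 ± 0.10) lower (adjusted p = 0.00785, 0.0111, 0.0289 and 0.0484). In cortex 0 of 82 passed by limma, where 0.133% of all probe sets did, and 5 were under an unadjusted p of 0.05, against 11.4%. The smallest adjusted p there was 0.135, for Cox5a (-0.43 ± 0.12), and next came Ndufab1 (-0.26 ± 0.09), Cox6c (0.32 ± 0.14), Atp5f1a (0.18 ± 0.08) and Cox6a1 (-0.18 ± 0.08). Without cortex sham at 14 d, replicate 1, 3 members passed (3.48% of all probe sets), and without cortex sham at 3 months, replicate 2, 1 did (1.23%), Cox5a among them each time. In those cortex fits the doubted replicate 2 at 14 d and the region-doubted replicate 1 at 3 months were the only sham samples of their times. Likewise, in raphe without sham replicate 2 at 3 months, types B and C kept only the region-doubted replicate 1 there. In cortex with all samples the interval lay within 0.5 of 0 for 67 of 82 members.

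The difference between the regions in injured minus sham was tested itself, with the same limit for raphe. No member passed by limma (0 of 82), where 0.0206% of all probe sets did, and 4 were under an unadjusted p of 0.05, against 8.49%. The largest difference was that of Cox5a, at 0.50 ± 0.17 (adjusted p = 0.403), and 44 of 82 intervals lay within 0.5 of 0.

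Single times had 4 injured and 2 sham samples a region, except that raphe sham at 3 months had 1 sample on type A. In raphe at 4 h 0 of 81 members passed by limma (0.15% of all probe sets) and 15 were under an unadjusted p of 0.05 (13.7%). At 24 h 0 passed (0.00534%) and 3 were under it (4.36%). At 7 d 1 passed (0.801%) and 10 were under it (12.8%). The 1 gene was Cox8b, the muscle form of a small complex IV subunit. At 14 d 0 passed (0.0374%) with 6 under an unadjusted p of 0.05 (6.45%), and at 28 d 0 (0%) with 5 (6.8%). At 3 months 0 passed (0.614%) with 7 under it (10.7%).

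Cox8b at 7 d was 7.98, 8.27, 8.07 and 8.43 in injured and 6.68 and 6.16 in sham raphe. All injured values lay above both sham values, the difference was 1.77 ± 0.32 and the adjusted p = 0.00617. The signal of Cox8b was low, above the 40th percentile on 46 of 83 arrays. The call was lost without raphe sham at 7 d, replicate 2, and with the mean of the gene's probe sets in place of the brightest, which gave 0.31. Without the 5 doubted samples 7 members passed at 7 d, where 4.71% of all probe sets did, among them Cox6c (0.88 ± 0.21) and Atp5f1a (0.57 ± 0.15) as higher and Atp5po (-1.23 ± 0.32) and Cox6a1 (-0.70 ± 0.20) as lower.

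Cox6c at 7 d was 10.37, 10.31, 10.30 and 10.33 in injured and 9.36 and 9.53 in sham raphe, with every injured value above both sham values, though its adjusted p was 0.13 with all samples. At 3 months it was 10.14, 9.69, 10.01 and 9.62 in injured raphe and 8.58 in the 1 sham sample measured on its array type. Sdhb at 4 h showed how 1 sample can set a mean, since it was 11.69, 12.90, 7.41 and 13.00 in injured and 13.39 and 13.52 in sham raphe, for a difference of -2.20 ± 0.74 (adjusted p = 0.215).

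The median over the members in raphe was -0.22 at 28 d, where 18 of 81 were above 0, and 0.28 at 3 months, where 62 were. The value at 28 d was -0.13 without sham replicate 2 and -0.30 without sham replicate 1. The medians of all probe sets at these times were both 0.02. At 3 months 1 of the 2 sham samples was region-doubted and had no type A array, so the 48 type A members rest on sham replicate 2 alone. Without the region-doubted samples all members did, and the median was 0.31 with 61 of 81 above 0. The median shift of that replicate was 0.20, against 0.2853 to 0.5588 in raphe sham samples of the other times. Complex IV had the lowest of the medians at 28 d (-0.37) and complex I the highest at 3 months among the complexes with over 4 genes (0.37). No test was made of these medians.

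**Figure D4:**
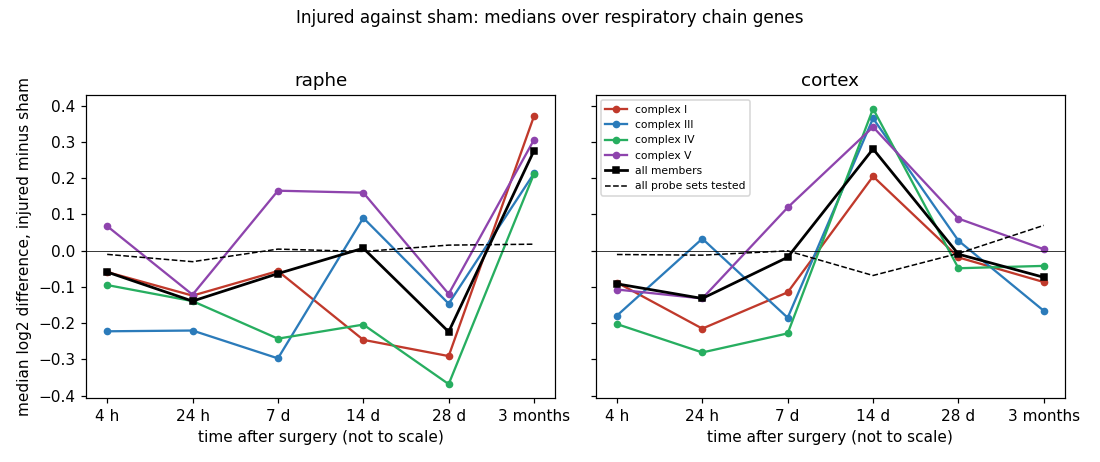
Median log2 difference of injured minus sham (vertical axis) over the members of complexes I, III, IV and V, over all members and over all probe sets tested, at the 6 times in raphe and cortex. The members' median reaches 0.28 at 3 months in raphe and at 14 d in cortex, both times at which a sham sample was doubted.

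In cortex at 4 h 0 of 82 members passed by limma (0.016% of all probe sets) with 2 under an unadjusted p of 0.05 (7.91%), and at 24 h 0 (0.0426%) with 7 (6.74%). At 7 d there were 0 (0.368%) and 6 (9.91%), and at 28 d 0 (0%) and 1 (3.18%). At 14 d 2 members passed (1.81%) and 13 were under an unadjusted p of 0.05 (18.9%), and at 3 months 2 passed (2.47%) and 6 were under it (18.1%). Both of these times held a doubted sham sample.

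Uqcrq, a small complex III subunit, was 12.96, 13.31, 12.86 and 13.28 in injured cortex at 14 d and 12.97 and 10.19 in sham cortex, where replicate 1 lay within the injured values and the doubted replicate 2 far below them. The difference of Uqcrq was 1.52 ± 0.38 (adjusted p = 0.0339). Cox6c was 10.06, 10.16, 10.62 and 10.15 in injured and 10.07 and 7.81 in sham cortex, with a difference of 1.31 ± 0.35 (adjusted p = 0.0478). Without the doubted samples these became 0.13 and 0.17 and neither passed. The Uqcrq call was also lost without injured replicate 2 or 4, and the Cox6c call without any 1 of the injured samples. The median over members at 14 d was 0.28, beside -0.07 over all probe sets, and was 0.13 without the doubted samples, and with cortex sham replicate 1 left out instead 11 members passed. In that fit 18.7% of all probe sets passed, and the doubted replicate 2 was the only sham sample.

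At 3 months Ndufs3 was 11.61, 11.62, 11.31 and 11.47 in injured and 12.22 and 11.99 in sham cortex, all injured values below both sham values, for a difference of -0.60 ± 0.13 (adjusted p = 0.0139). Ndufa10l1 was 11.95, 11.57, 11.70 and 11.65 in injured and 12.79 and 12.07 in sham cortex, again without overlap, for -0.72 ± 0.19 (adjusted p = 0.0348). The higher sham value of each was that of the region-doubted sample. The Ndufa10l1 call was also lost without injured replicate 2, 3 or 4. Without the region-doubted sample the differences were -0.48 and -0.36 and neither passed.

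Sham samples over the 6 times were compared with naive ones, a comparison that shares its sham samples with the one above. In raphe 0 of 81 members passed by limma (1.35% of all probe sets) and 13 were under an unadjusted p of 0.05 (14.6%). The smallest p was that of Cox7a2l, which takes part in joining complexes into supercomplexes, at 0.96 ± 0.28 (adjusted p = 0.0786), followed by Cox7b (0.66 ± 0.22) and Sdhc (-0.50 ± 0.18). Without the 5 doubted samples 6 passed, where 6.12% of all probe sets did, with Cox7a2l, Cox7b and Uqcrfs1 higher and Atp5f1e, Cox7c and Atp5f1d lower. In cortex 0 of 82 passed by limma (0.49%) and 17 were under an unadjusted p of 0.05 (13.8%), and Ndufa4 had the smallest p, at -0.45 ± 0.13 (adjusted p = 0.106). The count in cortex changed with cortex sham at 14 d, replicate 1, left out, where the doubted replicate 2 was the only sham sample of that time. With raphe sham at 3 months, replicate 2, left out Cox7a2l passed in raphe (1.84%), over 5 times, since its array type then had no sham array at 3 months.

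Among the 6 injured times a moderated F test over times gave 0 of 81 members in raphe by limma (0.486% of all probe sets) and 20 under an unadjusted p of 0.05 (18.3%), with Cox8b first (adjusted p = 0.0971). In cortex it gave 0 of 82 (1.1%) and 5 (15.5%), with Ndufs3 first (adjusted p = 0.1). Without raphe injured at 4 h, replicate 1, 3 members passed in raphe (3.76% of all probe sets), and without replicate 4 of that group Atp5mf and Ndufv2 did (366 of 18686 probe sets). Leaving out raphe injured at 4 h, replicate 3, or at 14 d, replicate 2, gave 1 each (1.87% and 0.401%).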

How the data were processed

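Array signals of 244 arrays were used as deposited, as linear intensity values. The software and any scaling by the authors are not given in the sources used here, and the deposited intensity values were not rescaled. Groups came from sample titles, and the type A arrays of cortex injured at 24 h, replicates 1 and 2, whose descriptions give 4 h, stayed with their titles. Depth does not apply to arrays, and the number of samples limits the precision. Gene names came from GEO's platform annotation.

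A probe set was tested where its signal exceeded the 40th percentile of the array on at least 4 arrays of a region. For each array type, log2(signal + 32) was fitted with a mean per region, treatment and time in limma 3.58.1 (R 4.3.3, statmod 1.5.0), and p-values were adjusted over the 3 types together. The fit was tested on simulated data for injured raphe against injured cortex only, with planted changes larger than those reported here, which says nothing of its power at single times. Intervals are the difference plus or minus the normal 95% range.

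Members and gene lists were chosen with earlier results of these data known, and the mitochondrially encoded and serotonin lists and the bright probe set background after seeing the annotation or data. Members named were, in each comparison, those that passed, at most 10 a direction by p, the 5 of smallest p where fewer passed, and tissue forms, complex II, Cyc1 and Atp5if1; those outside the rule were chosen after seeing values. Alternatives tried were a smaller and a larger added constant, filters, quantile normalization, array quality weights, the mean of a gene's probe sets, a replicate block and left-out samples.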

Additional observations from a re-analysis of the deposited data

Results flagged for a closer look

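In groups of 4 samples, a sample was set aside for a closer look where its gap to the nearest other sample exceeded Dixon's 95% critical value, which chance exceeds in about 1 in 20 groups. Over 14 groups of median shifts and 67 groups of levels of genes that passed in comparisons of injured with sham, 6 did so. The median shift of cortex naive replicate 1 was -0.0573, below the other naive cortex samples. Cox6c was at 8.80 in cortex injured at 7 d, replicate 4, below its group. Cox8b, a dim probe set, had 4 such samples, at 6.03 in cortex injured at 3 months, replicate 3, at 8.11 in cortex naive replicate 4, at 7.80 in raphe injured at 24 h, replicate 3, and at 7.87 in raphe injured at 28 d, replicate 3.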

How the results depend on the processing

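The median raphe difference in each arm stayed above 0 under every alternative run. Counts of members that passed, 12 in naive, 38 in sham and 53 in injured rats, stayed within 1.5 times, except that naive rats gave 22 without the 5 doubted samples and 22 with array quality weights, and 6 to 13 with 1 sample left out. In sham rats 33 to 45 and in injured rats 48 to 61 passed with 1 sample left out. Of 246 values recomputed for genes that passed, 232 kept their call, 14 missed the threshold and 0 reversed. Injured against sham rests on at most 2 sham samples a time, so single samples decide calls, and the cause of each change below was not tested. Counts in this section stand without the shares of all probe sets, which can change with the setting too. In raphe, the shares given above without the 5 doubted samples were higher than those with all samples. These counts are therefore not a result about the members alone.

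Without the 5 doubted samples 4 members passed in raphe over the 6 times, 7 at 7 d, 1 at 3 months, 6 in sham against naive raphe and 4 over the raphe time course, and 0 in cortex at 14 d and 0 at 3 months. With array quality weights the same comparisons gave 8, 5, 1, 2, 5, 0 and 0, and the cortex time course 5. With naive in place of sham samples 1 passed in raphe and 1 in cortex. The mean of a gene's probe sets gave 1 in cortex over the 6 times, 0 in raphe at 7 d, 1 in cortex at 7 d and 1 at 14 d. The 60th percentile filter gave 0 in raphe at 7 d. No filter gave 1 in cortex at 14 d and 1 at 3 months, quantile normalization 1 at 3 months, and leaving out the region-doubted samples 0 there. Replicate numbers do not pair the samples: for raphe and cortex samples of the same group and number, deviations correlated at a median of 0.005 over 40 pairs, 1 of them over 0.1. With the replicate block 1 passed in cortex at 14 d, and the block changed no other count by over 1.5 times.

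With 1 sample left out, 0 to 6 passed in raphe over the 6 times (the 6 over 5 times for type A), 0 to 1 at 7 d, 0 to 3 over the raphe time course, 0 to 1 in sham against naive raphe, 0 to 3 in cortex over the 6 times, 0 to 11 at 14 d, 0 to 1 at 28 d, 0 to 2 at 3 months and 0 to 2 in sham against naive cortex. For raphe at 3 months, leaving out sham replicate 2 was not run, since array type A then has no sham sample. The highest cortex counts over the 6 times, at 14 d and in sham against naive came without sham at 14 d, replicate 1. The doubted replicate 2 was then the only sham sample of that time.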
